A study of Mus musculus with 6 samples.

Results

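Rbm15b, Wtap and Nsun2 encode proteins that take part in writing methyl groups onto RNA. They were selected on measured values, chosen by having at least 1 entry in the authors' list of summits from an ac4C pull-down. They are 3 of the 1485 genes in that list and hold 6 of its 1876 summits, on 5 transcripts. The cell line was 32D, from mouse bone marrow, which needs interleukin 3 to grow; it is labelled as bone marrow lymphoblastocytes, wild type in every group and kept in medium with 10 ng/mL of that cytokine. Poly(A) RNA was used for acRIP-seq, in which an antibody to N4-acetylcytidine (ac4C, an acetylated cytidine) recovers RNA fragments for sequencing. The libraries comprised 2 with the ac4C antibody, 2 with control IgG and 2 of input RNA, all from the same line, and nothing in the labels says whether they came from separate cultures. By its entry names the list is a single call on both ac4C libraries together, and no value below belongs to a single library and none has a replicate error. It holds no expression values, and the labelled cell type was not checked against marker levels here.

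N6-methyladenosine (m6A) is the most common internal mark of mRNA. It is written by a complex in which Mettl3 is the catalytic subunit, Mettl14 holds the RNA, Wtap tethers the pair in nuclear speckles and the paralogs Rbm15 and Rbm15b bind RNA and bring the complex to it. The m6A writers are known for their part in stem cell differentiation in blood and in myeloid leukemia. Nsun2 is a methyltransferase that makes 5-methylcytidine (m5C) in tRNAs and in some mRNAs and other RNAs. The mark pulled down here, ac4C, is written by Nat10, a separate enzyme that acts on rRNA, tRNA and mRNA.

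All 3 genes had a summit of middling height. The strongest summits were 14.7-fold for Rbm15b and 13.3-fold for both Wtap and Nsun2, where the fold is the enrichment given by the authors' peak caller. The median over all 1876 summits was 11.4-fold, with quartiles of 7.12 and 19.9. Of the 6 summits, 3 were at or above that median and 3 below it. They lay in every part of the mRNA, with 1 in a 5' untranslated region, 2 in coding sequence and 3 in a 3' untranslated region. The members were taken from the list because they are in it, so these values are a description and carry no test.

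**Figure D1:**
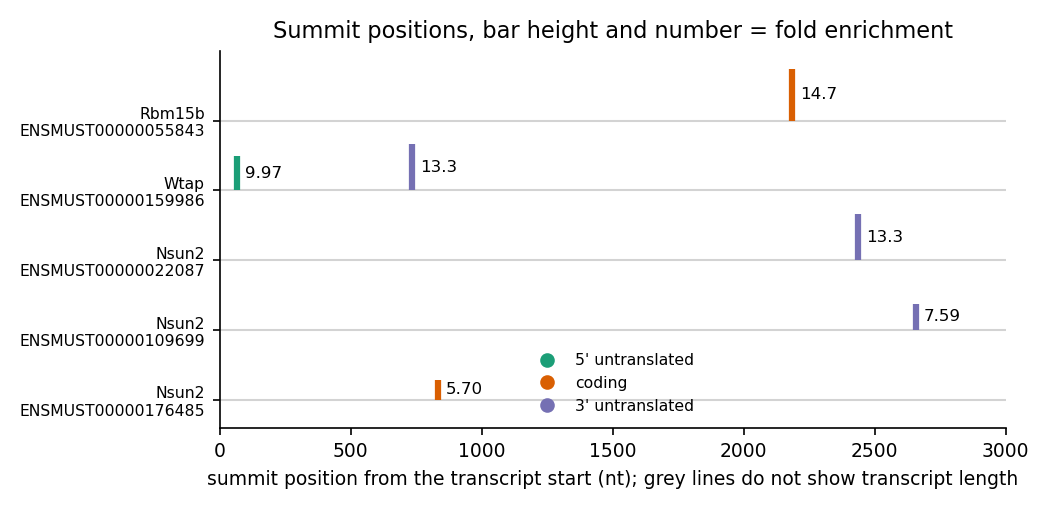
Each bar stands at a summit's distance in nt from the start of the transcript named at the left, with its height and the number beside it giving the fold enrichment, and its colour the region. Rbm15b has 1 coding summit, Wtap has summits in both untranslated regions of 1 transcript, and the 3 Nsun2 summits lie on 3 transcripts.

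The fold has a plain meaning in these data. Every one of the 1876 folds was a whole multiple of 0.475 (tolerance 0.01 of a step), which in the formula of MACS2 (pileup plus 1 over background plus 1) gives 1 background of 1.11 fragments for every entry. Each fold can thus be read back as a pileup, the number of pulled-down fragments that cover the summit. The pileup is not corrected for transcript abundance, so an abundant mRNA can give a tall summit through its number of copies, and neither the input nor the IgG libraries enter it. The exact 95% Poisson intervals given with it cover counting error only. PCR copies are not independent molecules, and a summit is by definition a high point of its peak.

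Rbm15b (ENSMUSG00000074102), an RNA-binding adaptor of the m6A writer complex, had 1 summit. It lay at nt 2186 of ENSMUST00000055843, in coding sequence. Its pileup was 30 fragments (95% interval 20.2 to 42.8), or 14.7-fold, with a q-value of 7.9e-32 in the authors' deposited table. In the whole list 712 summits were higher, 24 including this one had the same fold and 1140 were lower, so that 62.0% of summits were at or below it. It stood slightly higher among coding summits, with 587 of 900 at or below it, or 65.2%. It lay far from the transcript start, since 789 of the 900 coding summits had a position at or below nt 2186. Its paralog Rbm15 had no listed summit. In the gene table used for names, Rbm15b overlaps 1 gene, Dcaf1, which had no listed summit, and the sources used here do not say whether strand was used in placing reads.

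Wtap (ENSMUSG00000060475), the regulatory subunit that tethers the methyltransferase pair, had 2 summits, both on ENSMUST00000159986. The one at nt 734, in the 3' untranslated region, had a pileup of 27 fragments (95% interval 17.8 to 39.3) and a fold of 13.3. The one at nt 67, in the 5' untranslated region, had 20 fragments (12.2 to 30.9) and a fold of 9.97. The ratio of the 2 folds was 1.33, and the intervals overlapped widely, so neither summit was shown to be the taller. In the whole list, 57.4% of summits had a fold at or below that of the summit at nt 734, and 44.9% at or below that at nt 67. Within their own regions these shares were 55.4% of 843 and 39.8% of 133 summits.

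Of 146 transcripts with 2 or more listed summits, 9 had them in both untranslated regions, and 8 of these, the Wtap transcript among them, had none in coding sequence. Summits in 5' untranslated regions made up only 7.09% of all summits, so few such pairs can be listed and nothing particular to Wtap is read from the count. The Wtap pair carried consecutive peak numbers, 22735 and 22736. Numbers in the list followed transcript order, so no other peak was numbered between the 2 summits. The transcript itself is short in its coding part. Its 5' untranslated region reaches at least nt 67 and its 3' untranslated region begins by nt 734, which leaves at most 666 nt, or 222 codons, for coding sequence. Of the 843 summits in 3' untranslated regions, 62 had a position at or below nt 734, and of the 133 in 5' untranslated regions 11 were at or below nt 67. The gene table gives 4 RefSeq transcripts for Wtap, and no summit was listed on another Wtap transcript. Reads shared by isoforms can be placed on any of them, so the isoform these fragments came from was not determined.

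Nsun2 (ENSMUSG00000021595), the m5C methyltransferase, had 3 summits on 3 transcripts. The tallest lay at nt 2438 of ENSMUST00000022087, in the 3' untranslated region, with 27 fragments (95% interval 17.8 to 39.3) and a fold of 13.3, the same as the taller Wtap summit. The next lay at nt 2656 of ENSMUST00000109699, also in the 3' untranslated region, with 15 fragments (8.40 to 24.7) and a fold of 7.59. The third lay at nt 832 of ENSMUST00000176485, in coding sequence, with 11 fragments (5.49 to 19.7) and a fold of 5.70. The tallest was 1.75 times the second and 2.33 times the third in fold. All 3 intervals overlapped, that of the tallest meeting that of the lowest only between 17.8 and 19.7 fragments.

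In order of falling fold, the Nsun2 summits stood at percentiles 57.4, 31.2 and 17.9 of the list, the last being the lowest of the 6. Their q-values in the authors' deposited table ran from 1.37e-27 to 5.73e-08, all well inside the list, whose highest q-value was 0.0108 at its lowest fold of 2.85, or 5 fragments. Summits on 3 or more transcripts were listed for 28 genes, or 1.89% of the 1485, and coding together with 3' untranslated summits for 102, or 6.87%. The positions of the 2 summits in 3' untranslated regions differ by 218 nt, but they are counted on different transcripts. The gene table gives 1 RefSeq transcript for Nsun2, fewer than the 3 Ensembl transcripts with a summit. Whether they mark 1 site in shared sequence was not tested, since no transcript sequence was used here. The 3 pileups together came to 53 fragments.

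**Figure D2:**
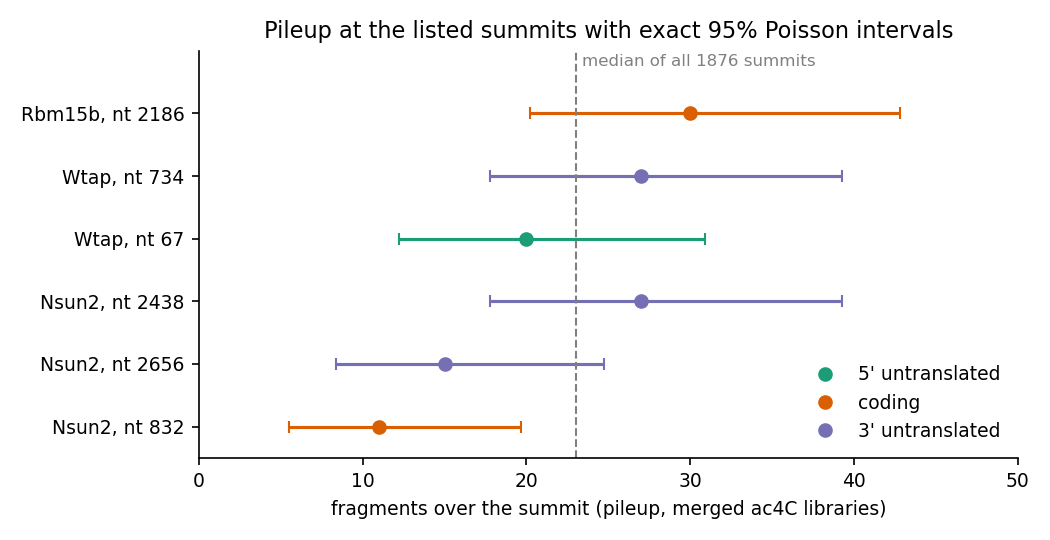
Points give the pileup, in fragments of the merged ac4C libraries, at each summit, bars the exact 95% Poisson interval, colours the region, and the dashed line the median pileup of 23 over all 1876 summits. The intervals of all but the Nsun2 coding summit, which ends at 19.7, include the median.

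Set in order of their strongest summits, the genes differed little. Rbm15b came first with 30 fragments, and Wtap and Nsun2 tied with 27. The highest fold was 1.11 times the lowest, and a gap of 3 fragments is far inside each interval. The order of the 3 genes was therefore not resolved at this depth. The Nsun2 figure is that of 1 of its 3 transcripts with a summit, and whether these summits mark 1 site was not tested. The depth of each library is unknown.

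**Figure D3:**
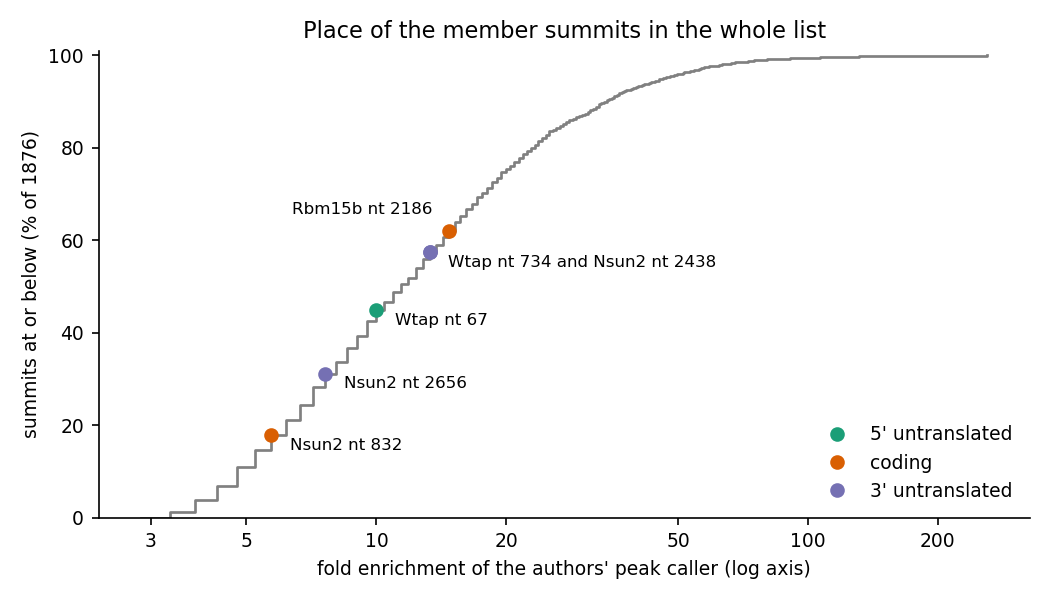
The line gives the percent of all 1876 summits (vertical axis) at or below each fold enrichment (horizontal axis, log scale), and points mark the 6 summits of the 3 genes, coloured by region. They spread from 17.9% to 62.0% on the vertical axis, and none reaches the list's upper quartile of 19.9-fold.

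The other genes of the m6A pathway give the setting for Rbm15b and Wtap. Of the 8 genes of the m6A writer complex, 2 had a listed summit, or 25.0% (exact Clopper-Pearson 95% interval 3.19% to 65.1%), and these are the 2 members chosen for having one. Of the 21900 protein-coding genes in the gene table, expressed in these cells or not, 6.71% had one. No summit was listed for Mettl3, Mettl14, Virma, Zc3h13, Cbll1 or Rbm15, which include the catalytic subunit Mettl3 and the scaffold subunit Virma. None of the 6 other m6A and m6Am writers, among them Mettl16 and Pcif1, had one either. An unlisted gene may be little expressed, lack the mark or have been removed by the authors' filter, whose rule the sources used here do not state. The list numbers its peaks up to 33651 and holds 1824 of those numbers, or 5.42%.

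Genes that remove or read m6A were listed too. Of the 2 demethylase genes, Fto had a coding summit at nt 1293 with a fold of 4.27, from 8 fragments (95% interval 3.45 to 15.8), and Alkbh5 had none. The Fto interval lies wholly below the 20.2 fragments at which that of Rbm15b begins. Of 13 reader genes, 3 had a summit. Prrc2a, whose protein binds m6A in mRNA, had 3 summits, with folds of 20.4 in the 5' untranslated region and of 18.5 and 8.54 in coding sequence. Hnrnpc, whose protein binds sites that m6A exposes, had a 3' untranslated summit of 9.49, and Hnrnpa2b1, a nuclear reader gene, a coding summit of 8.54. The cytoplasmic YTH readers Ythdf1, Ythdf2 and Ythdf3 and the nuclear Ythdc1 had no listed summit. Over the 4 m6A lists, 6 of 29 genes had a summit, or 20.7% (7.99% to 39.7%), beside 6.71% of protein-coding genes. Of these 6, Rbm15b and Wtap were chosen for having one. Without them it was 4 of 27, or 14.8% (4.19% to 33.7%), and taking out only genes with a summit lowers the share by construction. The lists were written with earlier results of these data known, so neither share is a test against the 6.71%.

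Nsun2 was the single listed gene of 14 in the m5C lists. It was 1 of 8 m5C writer genes with a listed summit, or 12.5% (0.316% to 52.7%), beside 6.71% of protein-coding genes, and it was chosen for being listed, so nothing is read from this count. No summit was listed for Nsun3, Nsun4, Nsun5, Nsun6, Nsun7, Nop2 or Trdmt1; of these, Nop2 and Nsun5 act on rRNA, Nsun3 and Nsun4 on mitochondrial RNA, and Trdmt1 on tRNA. The 6 genes for m5C readers and oxidation enzymes, among them Alyref, Ybx1 and Tet2, had none. The ac4C writer gene Nat10 and its tRNA adaptor gene Thumpd1 had none.

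Enzymes of other marks were not absent from the list. Ftsj1, a tRNA 2'-O-methyltransferase gene, had a 3' untranslated summit of 19.9-fold, and Lage3, a gene of the KEOPS complex for tRNA threonylcarbamoyladenosine, had a coding summit of 19.0-fold. Both folds are above that of Rbm15b, though the intervals of their 41 fragments (29.4 to 55.6) and 39 fragments (27.7 to 53.3) overlap that of Rbm15b. Elp2, an Elongator subunit gene, had a coding summit of 12.3-fold, and Rpusd4, a mitochondrial pseudouridine synthase gene, a 3' untranslated summit of 10.9-fold. Adar, the gene of an adenosine-to-inosine editing enzyme, had a 3' untranslated summit of 3.80-fold from 7 fragments (2.81 to 14.4), the lowest among these genes. These were 1 of 14 genes for 2'-O-methyl and rRNA methylation, 2 of 44 for other tRNA modification, 1 of 16 for pseudouridine and 1 of 6 for editing. No summit was listed for the 6 genes of N1-methyladenosine writers and erasers or the 8 for m7G and the cap. Beside the 6.71% of protein-coding genes with a summit, lists this small say little, and nothing is read from these counts.

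**Figure D4:**
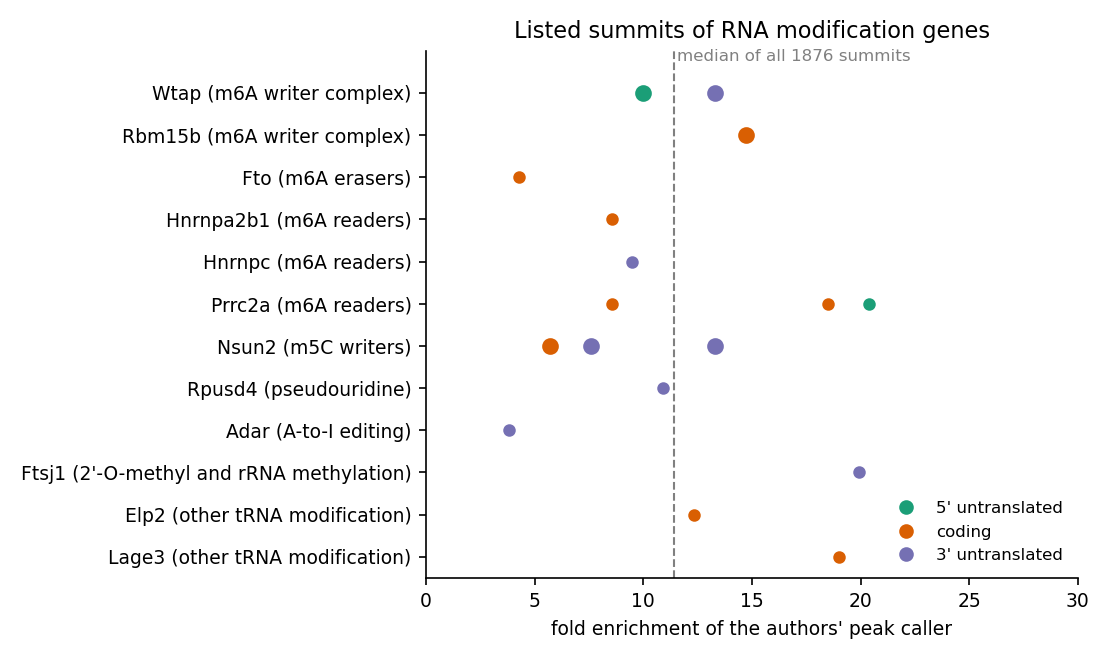
Each point is a listed summit of an RNA modification gene, by fold enrichment (horizontal axis) and gene with its list (vertical axis), coloured by region, with larger points for Rbm15b, Wtap and Nsun2 and a dashed line at the list's median of 11.4. The strongest summits of the 3 genes lie between 13.3 and 14.7, below those of Prrc2a, Ftsj1 and Lage3, which reach 19.0 to 20.4.

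Over all 13 lists of RNA modification genes, 12 of 138 genes had a summit, or 8.70% (4.57% to 14.7%). Without the 3 members it was 9 of 135, or 6.67% (3.09% to 12.3%), beside 6.71% of all protein-coding genes. The share is near that background, but leaving out only genes with a summit lowers the share by construction. The background also counts every protein-coding gene of the gene table, expressed in these cells or not. Without expression values, the share among expressed genes is not known. A summit at or above the list's median fold was listed for 7 of the 138 genes, a coding summit for 7 and a 3' untranslated summit for 6. The matching shares of all protein-coding genes were 3.65%, 3.45% and 3.32%. Each of these counts includes members chosen for having a summit. Without the 3 members, 4 of 135 genes had a summit at or above the median. The median of the strongest folds was 12.8 for the 12 genes and 12.3 over all 1485 genes. Their 17 summits comprised 2 in 5' untranslated regions, 8 in coding sequence and 7 in 3' untranslated regions, or 11.8%, 47.1% and 41.2%, against 7.09%, 48.0% and 44.9% of all summits. The lists were written with earlier results of these data known, so the counts are not tested and nothing particular to RNA modification genes is read from them.

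Genes most like each member were found by their strongest summit, taken in the same region with the same fold and at the nearest position on the transcript. For Rbm15b, 13 other genes shared its fold in coding sequence, and the nearest were Ccdc88b at nt 2173 and Copg1, a coat protein gene of Golgi vesicles, at nt 2676. For Wtap, 11 other genes shared its fold in the 3' untranslated region, led by Lsm3, a gene of the ring that binds U6 snRNA, at nt 692 and the complex I gene Ndufa11 at nt 442. For Nsun2 the nearest of 11 such genes were Anxa6, an annexin gene, at nt 2357 and Faf1 at nt 2524. The likeness is 1 fold and 1 position per gene in 1 merged call.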

How the data were processed

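Per the submitters' processing notes, the tools were MACS2, Bowtie2 and cutadapt and the build was GRCm39. The sources used here give no version, parameter, control library or filter on summits. The authors deposited 1 list of summits, and per the file headers it holds the peak caller's fold enrichment, which is a ratio, its p-value and q-value as −log10, and a position in nt on an Ensembl transcript. Entry names read as 1 call on both ac4C libraries merged, so the planned tests against input and IgG could not be made.

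The members and the gene lists were chosen with earlier results of these data known. The pileup was computed from the fold. The Poisson tail of that pileup over the constant background returned the deposited −log10 p-values within 0.00047%. The step was tested on simulated data. Names were looked up in RefSeq's gene table for GRCm38.p6, used for names and neighbours only (1475 of 1485 matched, and 1 of 139 list symbols, Trp53rk, was missing from it). Named genes were the members, all list genes with a summit and the 2 genes most like each member. Unlisted genes of the m6A writer complex and of the m5C and ac4C writers were also named by plan. The unlisted Mettl16, Pcif1, readers, eraser and other enzymes were named after their absence was seen. Python 3.11.15, pandas 2.3.3 and SciPy 1.17.1 were used. Alternatives were a stricter fold, single regions, other rankings and other ways of counting summits.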

Additional observations from a re-analysis of the deposited data

How the results depend on the processing

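No paired analysis was possible because the list merges both ac4C libraries, and leaving out a replicate was not possible for the same reason. With only summits at or above the list's median fold, 7 of the 12 RNA modification genes were left, Wtap kept 1 summit and Nsun2 kept 1, by construction. With only coding summits the count was 7 genes, and with only 3' untranslated summits 6, since fewer summits were counted. Over the strongest summit of each gene, the percentile was 59.1 for Rbm15b and 54.3 for Wtap and for Nsun2, and over coding summits it was 65.2 for Rbm15b. At the weakest listed summit it was 44.9 for Wtap and 17.9 for Nsun2. On the transcript with the most entries, Nsun2 had 1 summit. The other 14 of 26 alternatives moved no count by over 1.5 times and no percentile outside its 95% binomial interval. That interval leaves out the counting error of the member's own pileup, which for Rbm15b spans folds of 10.1 to 20.8. Several of the 14 could not have moved, so they are no evidence of stability. The q-value ranks summits as the fold does, Rbm15b has 1 summit, and no 2 member summits lie within 100 nt on 1 transcript. Among the 14, the count of 9 genes without readers and oxidation enzymes was chosen after seeing the data. Depth per library is unknown, and at 11 to 30 fragments a summit the order of the 3 genes was not resolved.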

Other observations

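Peak numbers follow the order of transcript identifiers, so neighbours in number need not be neighbours in the genome. Between the nearest listed peaks on other transcripts, 28 peak numbers ran past Rbm15b, of which 1 was listed. The same count was 34 for Wtap, with 2 listed, and 25, 20 and 14 for the Nsun2 transcripts in order of falling fold, with 1 listed for each. By construction, the only listed numbers in such a span are the gene's own on that transcript. Over the whole list, 5.42% of peak numbers were listed, so these counts do not show that listed peaks are sparse around the members. How many of the unlisted numbers belong to these genes was not analysed here.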
